A study of Schizosaccharomyces pombe with 2 samples.

Results

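The anaphase-promoting complex is described here in fission yeast (Schizosaccharomyces pombe) by the splicing of the introns of 9 of its subunit genes and of slp1, the gene of its activator. Introns were taken by gene identifier from a table of 5374 introns, and 20 of them belong to the 10 genes. They lie in 7 genes: apc2 (SPBP23A10.04), apc11 (SPAC343.03), apc10 (SPBC1A4.01), nuc2 (SPAC17C9.01c), cut9 (SPAC6F12.15c), apc5 (SPAC959.09c) and apc15 (SPBC83.04). The genes cut4 (SPBC106.09), apc14 (SPAC27D7.05c) and slp1 (SPAC821.08c) have 0 introns in the table and 0 introns in the RefSeq annotation of the ASM294v3 assembly. In the other 7 genes the number of introns in the table equals that of the annotated transcript.

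The complex is a ubiquitin ligase that marks securin and cyclins for destruction by the proteasome, which lets separase cut cohesin and lets the cell leave division. It is built from a catalytic core, an arm of subunits with tetratricopeptide repeats that binds activators and substrates, and a platform that joins them. Slp1, the Cdc20 of fission yeast, activates it at the onset of anaphase and is held back by the spindle checkpoint. In meiosis the complex must act at both divisions without destroying all cyclin between them, and in fission yeast Mes1 restrains it there.

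Cells carried pat1_as2 and prp2-1. Pat1 is a kinase that blocks meiosis, and prp2-1 is a mutation that makes the large subunit of U2AF fail in heat. U2AF is the factor that binds the 3′ end of introns. A culture arrested in G1 without nitrogen was sent into synchronous meiosis with a chemical and, as meiosis I began, was divided between 25 °C, the permissive temperature, and 34 °C, the restrictive one. PolyA RNA was taken 1 h later from each part (titled 8 h), with 1 library per temperature. Both libraries come from the same strain and culture, and no strain with working Prp2 was sequenced at 34 °C here, so heat and loss of Prp2 cannot be told apart. The meiosis-specific genes mes1 and mfr1 had 1003 and 914 reads over their introns at 25 °C. Of other genes with a part in meiosis, rem1 had 35 reads over its intron, and no intron of rec8 or rec11 had more than 9. The median over all introns with at least 20 reads in each library was 71 reads at 25 °C.

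The libraries held 636989 reads (25 °C) and 493659 reads (34 °C) over all introns, and the unspliced share over all of them was 6.56% and 39.9%. The unspliced share of an intron is the percentage of its reads, spliced or not, that still hold the intron. Of the 20 introns of the complex, 16 had at least 20 reads in each library and were measured. They had 32 to 289 reads at 25 °C and 27 to 213 at 34 °C. No difference has a replicate check, with a single library for either temperature: Fisher's exact test on reads compares these libraries, and intervals cover counting error only. Both take reads as independent. Reads may be PCR copies of 1 molecule, and then the intervals are too narrow and the p-values too small. In RNA from a whole culture, fewer cells with a transcript and less of it per cell cannot be told apart.

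Introns of fission yeast are short, and those of the complex had a median length of 50 nt (43 to 217) against 56 nt for 5034 placed introns of the table. The 6 introns shown belong to the 3 genes with just 2 measured introns whose changes lay farthest apart. Capitals mark the first 6 bases, where U1 binds, the last 3 bases, where the small subunit of U2AF binds, and any branch site motif between them (CTAAC itself, its variants CTGAC for one and CTAAT for another, and lastly CTGAT, all searched on the transcript strand). The positions are those of the ASM294v3 assembly, and apc10 and nuc2 are on the plus strand, cut9 on the minus strand.
apc10 intron 1 (chrII:1973534-1973604): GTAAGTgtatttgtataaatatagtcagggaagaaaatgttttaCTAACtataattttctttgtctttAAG
apc10 intron 2 (chrII:1973932-1973989): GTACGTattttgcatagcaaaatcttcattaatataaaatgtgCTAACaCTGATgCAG
nuc2 intron 1 (chrI:4498436-4498480): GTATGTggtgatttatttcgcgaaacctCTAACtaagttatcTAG
nuc2 intron 2 (chrI:4498652-4498757): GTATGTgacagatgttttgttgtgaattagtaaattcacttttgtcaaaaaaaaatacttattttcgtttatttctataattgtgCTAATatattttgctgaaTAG
cut9 intron 1 (chrI:1342923-1342978): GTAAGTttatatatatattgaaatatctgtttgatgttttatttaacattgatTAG
cut9 intron 2 (chrI:1343115-1343167): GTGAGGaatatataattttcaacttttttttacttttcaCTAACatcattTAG
Introns keep their numbers in the table. These were taken to count from the left along the chromosome, as read from the data, which makes intron 2 of cut9 the first of its transcript. A branch site motif was found in 17 of the 20 introns and in 76.3% of the 5034 placed introns, and no match says only that these letters are absent.

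Splicing of the complex's transcripts went from nearly complete to roughly even between spliced and unspliced reads. Summed over the 20 introns, 101 of 1800 reads were unspliced at 25 °C (5.61%, exact Clopper-Pearson 95% interval 4.59 to 6.78), and 712 of 1396 at 34 °C (51.0%, 48.3 to 53.7). These 2 intervals treat all reads as draws of 1 share and leave out the spread between introns, 9 of which lie in apc5. The unspliced share rose in 14 of the 16 measured introns, by the two-sided exact test of Fisher, Benjamini-Hochberg adjusted over all 2508 measured introns. Over all of those, 82.6% rose, so the count for the complex is near the background. None fell, by the exact test, by its unadjusted p or by a z test of the log odds ratio, and the same 3 counts were 0 over all measured introns. At 34 °C more than 50% of reads were unspliced in 7 of the 16 introns, against 39.5% of all measured introns, and at 25 °C in 0 of the 16, against 1.56%. The median change was 44.0 percentage points for the complex and 32.3 points over all measured introns. Quartiles of the change were 31.5 and 54.7 points for the complex, where 6 of the 16 introns are in apc5. Those of all measured introns were 15.2 and 51.0 points, so the ranges overlap, and the difference of the medians was not tested.

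**Figure D1:**
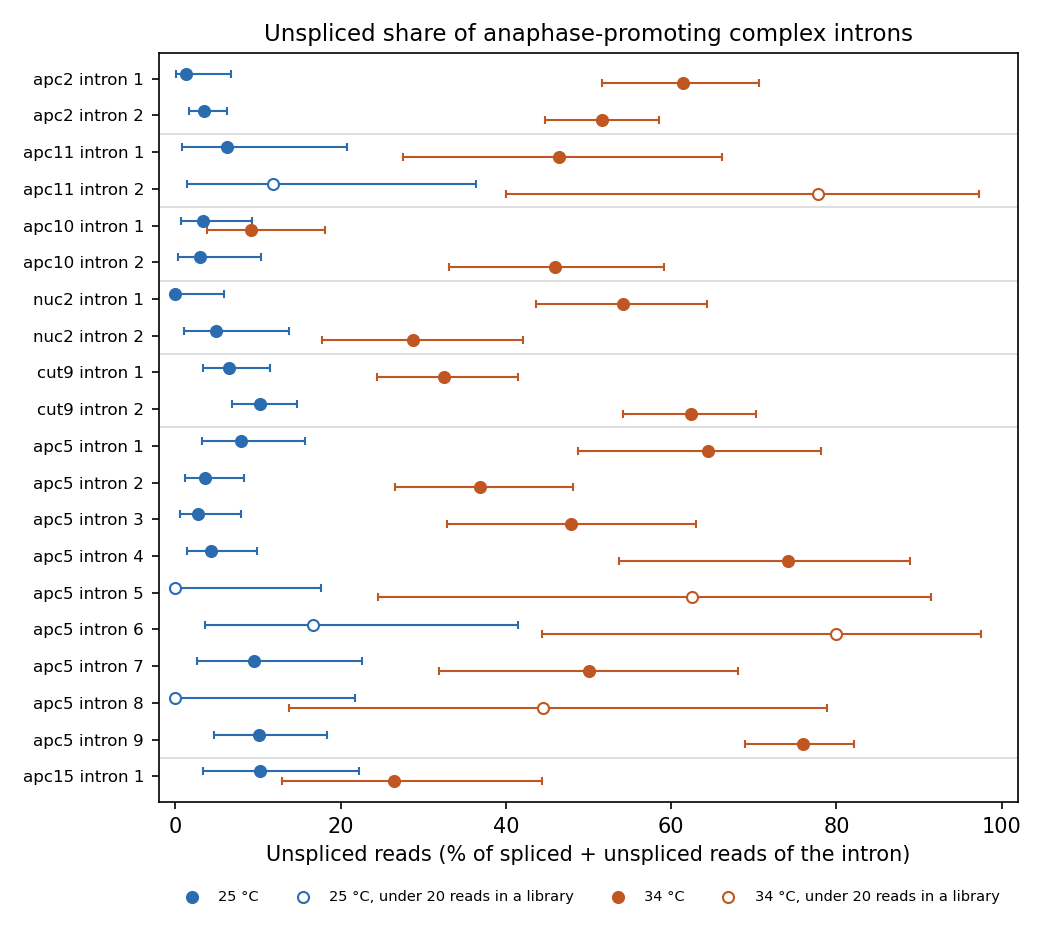
Unspliced share (x axis, percent of the intron's reads) of each of the 20 introns at 25 °C (blue) and 34 °C (orange), with exact 95% intervals for counting error. Open points are the 4 introns with fewer than 20 reads in a library. At 34 °C the measured introns lie between 9.21% and 76%, and at 25 °C between 0% and 10.3%.

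The catalytic core is formed by Apc2, a cullin, and Apc11, a RING finger protein that brings in the ubiquitin-conjugating enzyme. Intron 1 of apc2 had 1 unspliced and 80 spliced reads at 25 °C and 67 unspliced and 42 spliced reads at 34 °C. Its share rose by 60.2 points (Newcombe 95% interval 49.4 to 68.9, adjusted p = 6.39e-20, Fisher's exact test). Intron 2, the deepest of the complex, had 10 unspliced and 279 spliced reads at 25 °C against 110 and 103 at 34 °C. It rose by 48.2 points (40.9 to 55.0). Both introns of the cullin gene were thus nearly all spliced at 25 °C and had more unspliced than spliced reads at 34 °C. The introns are 44 and 45 nt long and begin with GTTTGT, found in 1.61% of placed introns, and GTATGT, found in 19.98% (chrII:2002371-2002414 and chrII:2003035-2003079, plus strand).

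Intron 1 of apc11 (chrI:1643127-1643169) had 2 unspliced and 30 spliced reads at 25 °C and 13 and 15 at 34 °C, a rise of 40.2 points (18.3 to 58.5, adjusted p = 9.68e-04, Fisher's exact test). Intron 2 of apc11, the longest of the complex with 217 nt (chrI:1643293-1643509, plus strand), went from 2 unspliced reads of 17 to 7 of 9. It is under the minimum of 20 reads and was not tested in the main comparison. Summed over both introns, apc11 had 49 reads at 25 °C and 37 at 34 °C, and its intervals are wide.

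Apc10 is the subunit that, with the activator, holds the destruction box of a substrate. Of the reads of intron 1, 3 of 91 were unspliced in the 25 °C library (3.30%) and 7 of 76 in the 34 °C library (9.21%). Its share did not pass the test (adjusted p = 0.211, Fisher's exact test), with an interval of the difference from -1.66 to 14.8 points. In intron 2 the unspliced reads went from 2 of 67 to 28 of 61, a rise of 42.9 points (29.0 to 55.5). The former begins with GTAAGT, the commonest first 6 bases (27.5% of placed introns), and the latter with GTACGT (5.24%). GTAAGT also begins intron 1 of cut9 and intron 1 of apc5, numbered from the left, which rose by 26.0 and 56.5 points. The change of apc10 intron 1 was at percentile 10.8 of all measured introns and that of apc10 intron 2 at percentile 63.6. The log2 odds ratio of intron 2 was higher by 3.03 (SE 1.39), which did not pass the threshold by the z of the difference, adjusted over all 1825 pairs of introns within genes.

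The arm of tetratricopeptide repeats is represented by nuc2, the Apc3 of fission yeast, which binds the tails of activators, and by cut9, its Apc6. In nuc2, none of the 61 reads of intron 1 was unspliced at 25 °C (0 of 61), which allows a share of up to 4.92% by a limit of 3 reads in this library (the exact 95% interval reaches 5.87%), while 52 of 96 were at 34 °C. This was the only measured intron of the complex without an unspliced read at 25 °C, and at 34 °C its share was 54.2% (43.7 to 64.4). Intron 2 of nuc2 rose from 3 of 61 reads to 17 of 59, a change of 23.9 points (10.7 to 36.9, adjusted p = 7.20e-04, Fisher's exact test). Both begin with GTATGT, and intron 1, with 45 nt, is the shorter. The log2 odds ratio of intron 2 minus that of intron 1 was -4.40 (SE 2.25) and did not pass the threshold either.

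Over both introns, cut9 had 421 reads at 25 °C, the most of the genes of the complex with 2 introns. Intron 1 went from 11 of 168 reads unspliced (6.55%) to 41 of 126 (32.5%), and intron 2 from 26 of 253 (10.3%) to 93 of 149 (62.4%). The changes were 26.0 points (17.04 to 35.05) and 52.1 points (43.0 to 60.2), intervals that do not overlap on this scale, while the difference of their log2 odds ratios, 1.096 (SE 0.64), did not pass the threshold. Spliced reads of intron 2 went from 227 to 56 and those of intron 1 from 157 to 85. By the numbering from the left, intron 2 begins with GTGAGG, which 1 of the 5034 placed introns has, and intron 1 with GTAAGT. So does intron 1 of apc5, which rose by 56.5 points. No annotated exon of another gene overlaps the introns of apc2, apc11, nuc2 or cut9.

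**Figure D2:**
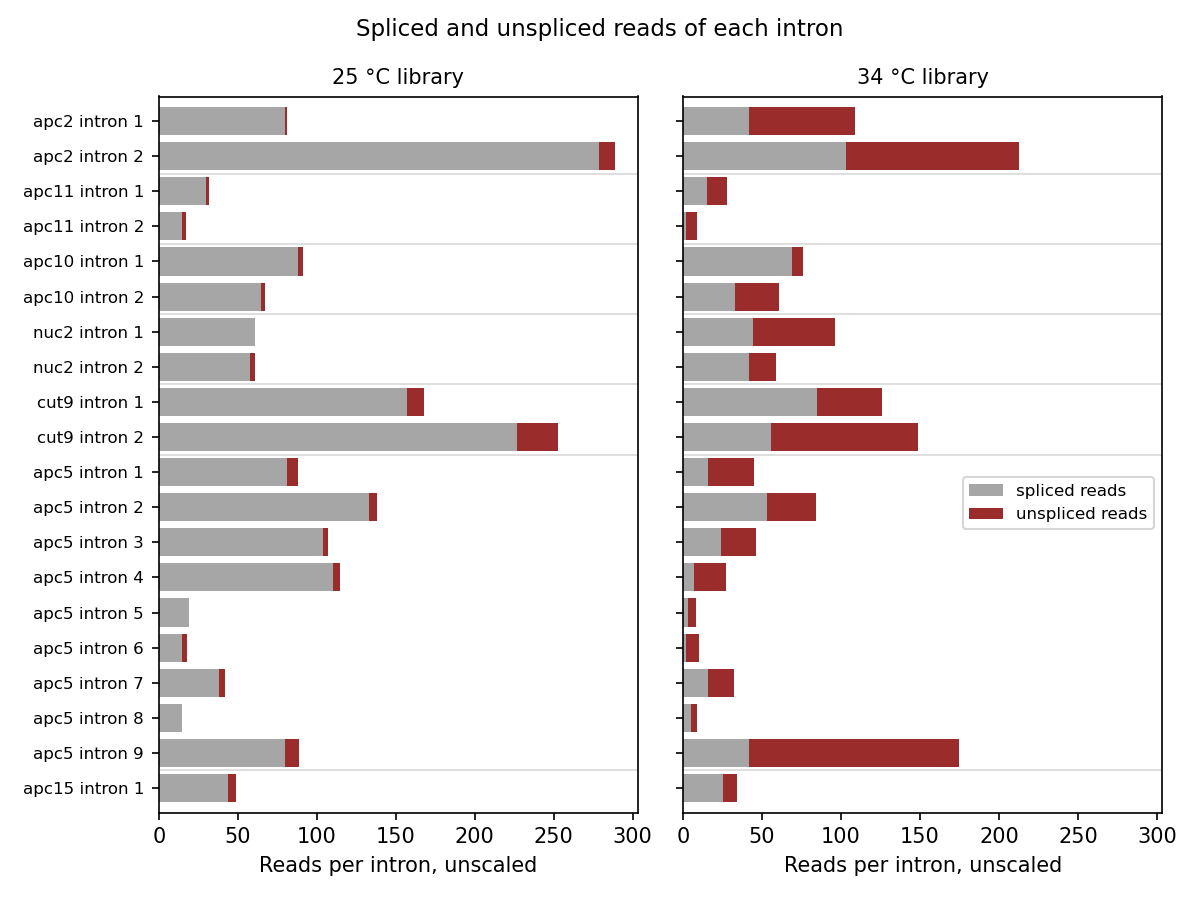
Spliced (grey) and unspliced (red) reads of each of the 20 introns (x axis, reads per intron without scaling) in the 25 °C and the 34 °C library. Unspliced reads are a thin end of each bar at 25 °C, and at 34 °C they outnumber spliced reads in, for example, intron 2 of cut9 (93 against 56) and intron 9 of apc5 (133 against 42).

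Apc5 belongs to the platform, together with Cut4 (Apc1), whose gene has no intron. The gene apc5 is the one of the complex with many introns, 9 on the minus strand of chromosome I. Numbered from the left, as read from the data, intron 9 is the first of the transcript. All 6 measured introns rose. Intron 4 (chrI:3402088-3402137) went from 5 unspliced and 110 spliced reads to 20 and 7, a rise of 69.7 points (50.2 to 82.7), the largest among the measured introns of the complex and at percentile 93.8 of all measured introns. Intron 9 (chrI:3403730-3403790) went from 9 unspliced and 80 spliced reads to 133 and 42, a rise of 65.9 points (55.4 to 73.3). Intron 1 rose from 7.95% to 64.4%, intron 3 from 2.80% to 47.8%, and intron 7 from 9.52% to 50%. Intron 2 changed least, from 5 of 138 reads to 31 of 84, a rise of 33.3 points (22.7 to 44.2). The adjusted p of the 6 introns ran from 4.69e-25 (intron 9) to 2.48e-04 (intron 7), by Fisher's exact test.

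The 3 other introns of apc5 had under 20 reads in both libraries, with 0 of 19 unspliced at 25 °C and 5 of 8 at 34 °C in intron 5, 3 of 18 and 8 of 10 in intron 6, and 0 of 15 and 4 of 9 in intron 8. At 25 °C the spliced reads of the 9 junctions of this transcript ran from 15 to 133. Of the 15 pairs of measured introns of apc5, 0 differed in log odds ratio past the threshold. The gap between the largest and the smallest change was 36.4 points in apc5 (6 measured introns) and 37.0 points in apc10 (2 measured introns). The median gap over all genes with at least 2 measured introns was 23.6 points. A gap tends to widen with the number of introns, so these values are not like for like. Over the 5 genes of the complex with such pairs, 0 of 19 pairs differed by the z test, against 11.4% of all pairs in the table. An unadjusted p under 0.05 was reached by 2 of the 19 by the z test, whose smallest adjusted p was 0.149. A likelihood-ratio test also called 0, with 3 unadjusted and a smallest adjusted p of 0.0815, against 13.2% of all pairs called. Standard errors are wide where few reads are unspliced at 25 °C, so 0 calls do not show that introns changed equally.

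Apc15 is a small subunit, known in human cells for its part in releasing the checkpoint's hold on the complex. Its gene has a single intron (chrII:1516835-1516901, plus strand, 67 nt), where unspliced reads went from 5 of 49 to 9 of 34. The share was 10.2% and 26.5%, a difference that did not pass the test (adjusted p = 0.0867, Fisher's exact test), with an interval from -0.297 to 33.9 points. It is one of the 2 measured introns of the complex without a call, and its interval includes the change of nuc2 intron 2. With this intron, 7 of the 16 measured introns are overlapped by an annotated exon of a non-coding RNA on the opposite strand, those of apc10 and introns 1, 2, 3 and 9 of apc5 among them. Whether its reads were counted as unspliced was not tested. The median change was 42.9 points over these 7 introns and 48.2 points over the 9 without such overlap.

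**Figure D3:**
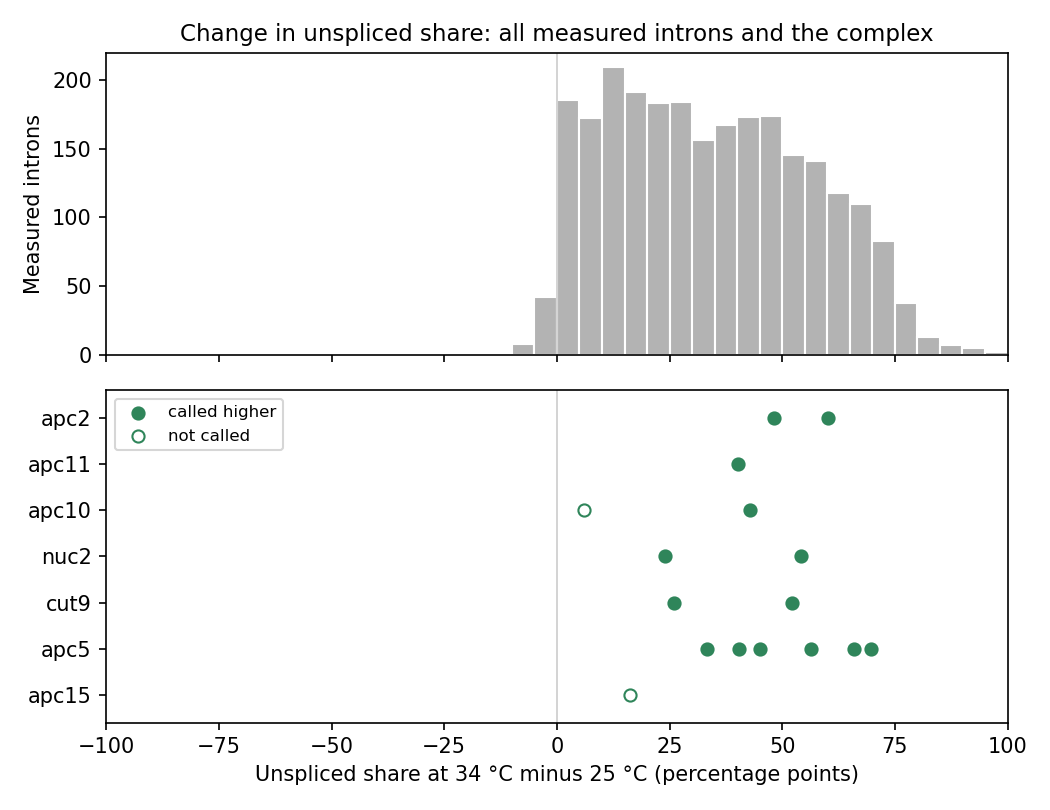
Top, the change in unspliced share (x axis, 34 °C minus 25 °C, percentage points) of all 2508 measured introns in bins of 5 points. Bottom, the 16 measured introns of the complex by gene, filled where the exact test called a rise. They lie between 5.91 and 69.7 points, and the 2 open points are intron 1 of apc10 and the intron of apc15.

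Changes are given next by intron length. In the plus-strand genes, where the place of an intron does not depend on the direction of numbering, the 4 measured introns of at most 50 nt (those of apc2, intron 1 of apc11 and intron 1 of nuc2) changed by 40.2 to 60.2 points, with a median of 51.2. The 4 longer ones (those of apc10, intron 2 of nuc2 and that of apc15) changed by 5.91 to 42.9 points, with a median of 20.1. Over all measured introns placed in the same way, the medians were 38.9 points (468 introns) and 28.01 points (977 introns). The introns of cut9, over 50 nt in either direction of numbering, changed by 26.0 and 52.1 points. In apc5, numbered from the left, intron 9 has 61 nt and changed by 65.9 points. The other 5 measured introns of apc5 have at most 50 nt and changed by 33.3 to 69.7 points. These are descriptions without a test.

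Reads per intron are given next, spliced and unspliced together. How an unspliced read was defined is not given, and whether this sum follows the amount of RNA of a gene was not tested. Scaled by library totals, the 16 measured introns had a median log2 ratio of -0.04 (34 over 25 °C), against 0.47 over all measured introns, and 7 of the 16 were above 0 against 1713 of 2508. A change of scaling moves all introns alike, so the gap was the same without scaling (-0.40 against 0.10) and scaled by the median ratio (-0.50 against 0). Spliced reads alone had medians of 0.03 and 0.27, scaled by the totals of spliced reads (595190 and 296520). As these totals fell, a ratio near 0 here goes with fewer spliced reads at 34 °C. Per gene, reads of nuc2 had a log2 ratio of 0.71 (exact 95% interval given the sum 0.36 to 1.07), from 122 to 155 reads. Those of cut9 had -0.25 (-0.47 to -0.02), from 421 to 275 reads, and those of apc2 0.17 (-0.05 to 0.39), from 370 to 322. Intervals of reads summed over a gene treat all its reads as draws of 1 ratio. They leave out the spread between introns and are too narrow where introns differ. By intron, nuc2 had 1.02 (0.54 to 1.51) in intron 1 and 0.32 (-0.22 to 0.86) in intron 2. In the same order, cut9 had -0.05 (-0.39 to 0.29) and -0.40 (-0.70 to -0.10), and apc2 0.80 (0.37 to 1.23) and -0.07 (-0.33 to 0.19). Summed over introns, apc5 had -0.17 (-0.34 to 0.01), but its introns went farther apart: intron 9 had 1.34 (0.97 to 1.73) and intron 4 had -1.72 (-2.39 to -1.11). By the numbering from the left, an annotated exon on the opposite strand overlaps intron 9 and none overlaps intron 4. Introns 1, 2 and 3 are overlapped by an exon of a different non-coding RNA and had -0.60, -0.35 and -0.85. Whether the overlaps bear on these ratios was not tested.

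**Figure D4:**
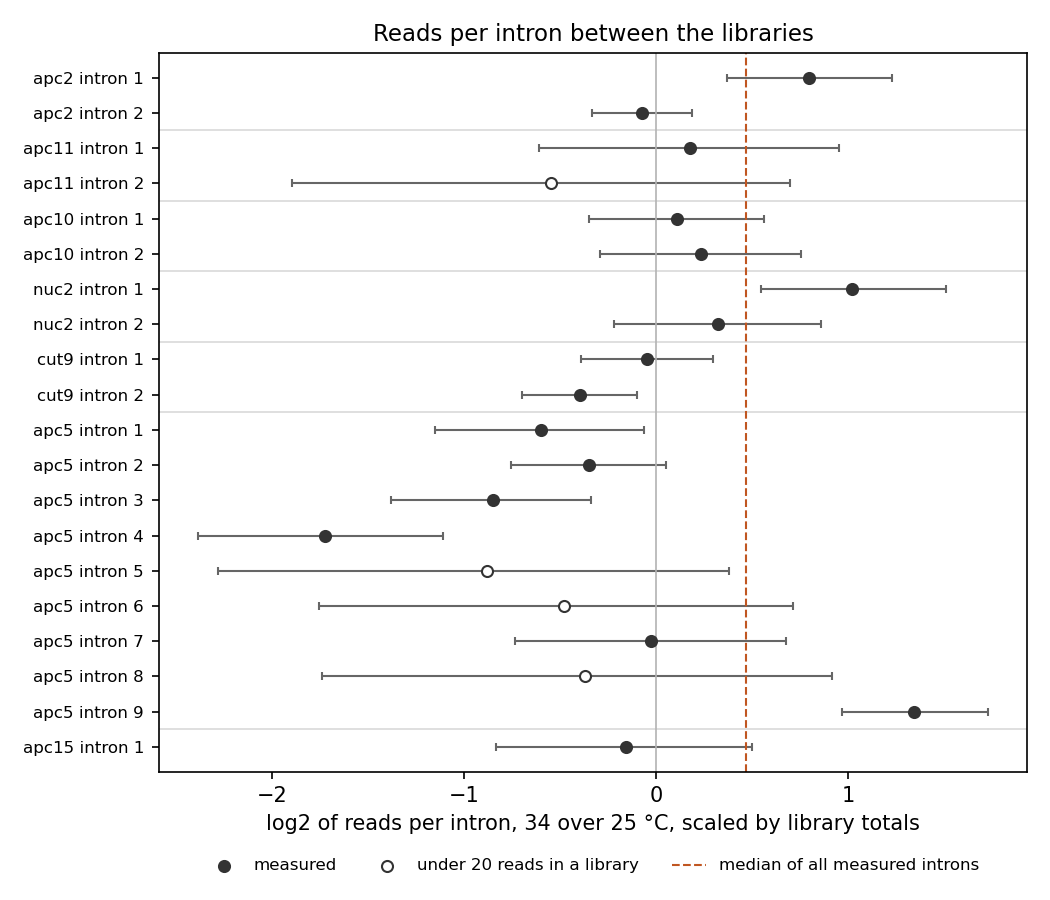
Log2 ratio of reads per intron (x axis, 34 over 25 °C, scaled by library totals) of the 20 introns, with exact 95% intervals for counting error, and the median of all measured introns (dashed, 0.47). Intron 9 of apc5 lies at 1.34 and intron 4 of the same gene at -1.72, with intervals that do not overlap.

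Genes that act with the complex were taken as a list of 39 genes by role, of which 26 have introns in the table, 60 introns in all. Of these 60 introns, 24 in 15 genes were measured, and the share rose in 23 and fell in 0, by Fisher's exact test, with a median change of 42.2 points. Over all measured introns 82.6% rose, with a median change of 32.3 points. Quartiles of the change were 29.5 and 55.0 points in the list and 15.2 and 51.0 points over all, and this difference was not tested. The other subunits with introns are cut23 (Apc8) and cut20 (Apc4). Intron 2 of cut23 rose from 8 of 276 reads to 100 of 175, a change of 54.2 points (46.4 to 61.5), and its intron 1 from 16 of 55 to 91 of 103. In cut20, intron 1 rose from 17 of 103 to 31 of 45 and intron 4 from 5 of 29 to 29 of 39. All 4 measured introns of these subunits changed by 52.4 to 59.3 points.

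Mfr1 is a meiotic activator of the complex and Mes1 an inhibitor of it in meiosis. The single intron of mes1 rose from 14 of 1003 reads to 162 of 577, by 26.7 points (23.05 to 30.5), and that of mfr1 from 19 of 914 to 200 of 564, by 33.4 points (29.4 to 37.5). Both have more reads than any intron of the complex itself. Among substrates, the intron of cdc13, the B-type cyclin of mitosis and meiosis, rose from 9 of 173 reads to 35 of 96, by 31.3 points (21.3 to 41.5). Intron 1 of mad2, a checkpoint protein that binds Slp1, rose from 2 of 29 reads to 17 of 25.

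Of the ubiquitin enzymes, ubc4 and ubc11 encode conjugating enzymes that serve the complex, and uba1 the activating enzyme. Intron 1 of ubc4 had the largest change of the list, 85.2 points (82.2 to 87.4), and intron 2 of the same gene the smallest, 5.35 points (4.12 to 6.60), from 15 of 1394 reads to 124 of 1930. Intron 2 of uba1 was the measured intron of the list that was not called, going from 1 unspliced read of 39 to 9 of 64 (the interval runs from -0.942 to 22.3 points). Intron 1 of sgo2, a shugoshin, rose from 2 of 34 reads to 87 of 162. Intron 4 of cdc2, the cyclin-dependent kinase, rose from 8 of 165 to 103 of 165, a change of 57.6 points (48.8 to 65.0).

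**Figure D5:**
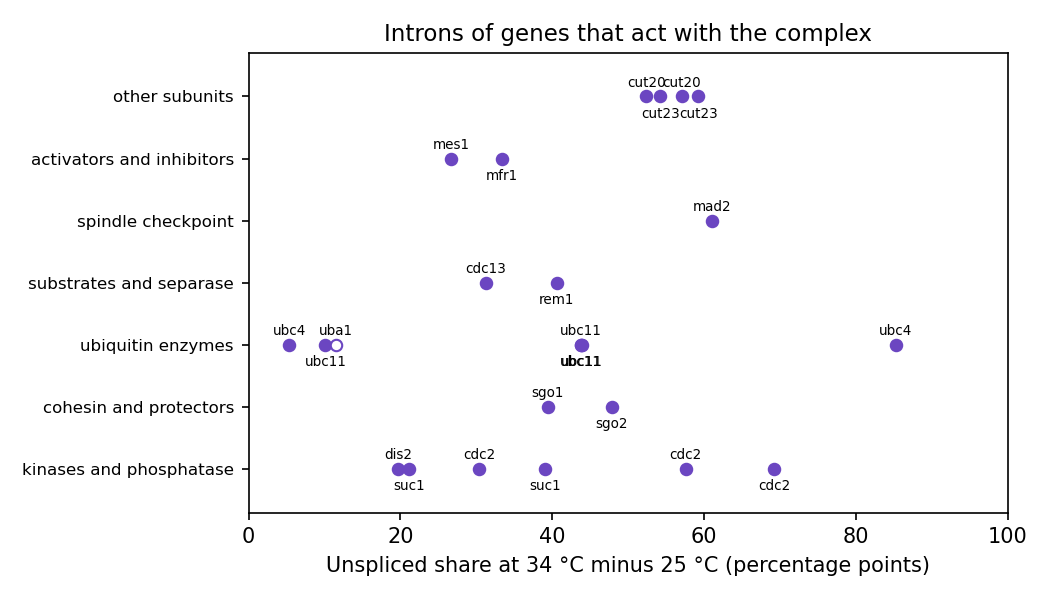
Change in unspliced share (x axis, 34 °C minus 25 °C, percentage points) of the 24 measured introns of genes that act with the complex, by role and labelled with the gene. Filled points rose by Fisher's exact test. The introns of ubc4 mark both ends, at 5.35 and 85.2 points, and the open point is intron 2 of uba1.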

How the data were processed

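The authors deposited whole-number counts of spliced and unspliced reads per intron and library, without scaling, per the file headers. The submitters' processing notes name TopHat and SAMtools, without versions. How an unspliced read was defined, with what tool and annotation reads were counted, on which build, and whether by strand is not given in the sources used here. The title of each library gave its temperature.

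From the counts, the unspliced share, its exact Clopper-Pearson 95% interval and the Newcombe 95% interval of the change were computed with scipy 1.17.1. Introns with at least 20 reads in each library were compared by the two-sided exact test of Fisher, Benjamini-Hochberg adjusted over all 2508, and called at an adjusted p under 0.05. Introns within a gene were compared pairwise on the log odds ratio, after adding 0.5 to every count, by the z of the difference adjusted over 1825 pairs. The script was tested on simulated data. Every intron of the 10 genes is named. Of the list of genes that act with the complex, the rule named the deepest measured intron of each role and the largest and smallest change, and the other introns of that list were added after their values were seen. The genes and lists were chosen with earlier results of these data known.

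Gene symbols, positions and sequences came from RefSeq's ASM294v3 assembly, which may not be the authors' build. All 10 identifiers matched their symbols. The direction of numbering was read from the data, as descriptions across introns within genes. Spliced reads at 25 °C were higher toward the 3′ end in plus-strand genes (r = 0.0764, 905 introns) and, if numbered from the left, in minus-strand genes (r = 0.138, 948 introns). The change was lower at higher scores of how common intron bases 3 to 6 are in plus-strand genes (r = -0.117) and in minus-strand genes numbered from the left (r = -0.164), against 0.0218 from the right. Positions, sequences, lengths and overlaps of single introns of cut9 and apc5 rest on this.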

Additional observations from a re-analysis of the deposited data

How the results depend on the processing

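None of the 16 measured introns of the complex changed direction or call under a minimum of 10, 50 or 1 read or with the z test of the log odds ratio, where it could be computed; 6 have fewer than 50 reads in a library and drop out at that minimum. With a minimum of 50 reads, 9 of 10 introns of the complex rose and 1195 of all 1362 measured introns, and the median change of all introns was 28.4 points. With a minimum of 1 read, 18 of 20 introns of the complex rose, 35 of 52 introns of the genes that act with it and 2789 of all 4993 (55.9%), and the median change of all introns was 34.7 points. The 4 introns with few reads were then called higher, with adjusted p from 0.00179 to 0.0232 (Fisher's exact test). The counts change with the number of introns that pass the minimum. An adjusted p under 0.01 and the z test left the count of 14 of 16, while over all 2508 introns 1886 (75.2%) and 2011 (80.2%) rose. The median change of the complex ran from 44.0 to 48.2 points over all alternatives. The median log2 ratio of reads per intron of the complex was -0.40 without scaling and -0.50 scaled by the median ratio. Scaling moves all introns alike, so it cannot change where the complex lies against them. No paired analysis was possible because each temperature has 1 library, and for the same reason no library could be left out. The introns without a call, intron 1 of apc10 (91 and 76 reads) and that of apc15 (49 and 34), have intervals that hold 0 and reach up to 14.8 and 33.9 points, and intron 1 of apc11 was called with 32 and 28 reads.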

Other observations

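The cohesin genes and their protectors, from which the complex releases sister chromatids through separase, had few reads: 25 introns of 8 genes are in the table, and 2 of them were measured. Intron 1 of sgo1, a shugoshin of meiosis I, rose from 10 unspliced reads of 33 to 23 of 33. In psm1, for a cohesin subunit, unspliced reads went from 0 of 11 to 4 of 5, and in intron 4 of rec11, for a meiotic cohesin subunit, from 1 of 7 to 13 of 15. In cut1, the separase gene, intron 3 had 0 of 7 and 9 of 15. Intron 2 of sgo2 changed less, from 0 of 10 to 7 of 47, and intron 3 of rec11 went from 0 of 7 to 1 of 4. The introns of this paragraph, except that of sgo1, are under the minimum of 20 reads and were not tested.

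Of the 36 introns of the list that were not tested, 28 had reads in both libraries, and the share was higher at 34 °C in 25, equal in 2 and lower in 1. The lower one was the intron of cdc25, a phosphatase that activates Cdc2, with 3 of 9 and 3 of 12. Over all introns of the libraries the unspliced share went from 6.56% to 39.9%. The same count over all untested introns is not given here, so the count of 25 is not a result about these genes. The introns named in this paragraph were chosen after their values were seen. In intron 3 of cut20 unspliced reads went from 0 of 27 to 7 of 7, and in intron 2 of mad2 from 1 of 11 to 16 of 17. The unspliced share of intron 2 of ubc11 was 1.499% (1534 reads) at the lower temperature and 11.6% (215 reads) at the higher, while introns 1, 3 and 4 of that gene had 45.7%, 45.8% and 47.6% at 34 °C. Reads at introns 1 and 3 went from 440 to 70 and from 1086 to 227.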
